A study of Homo sapiens with 20 samples.

Results

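The aldehyde dehydrogenases (ALDH) are a family of enzymes that oxidise aldehydes to carboxylic acids, and the members divide by substrate and by place in the cell. ALDH1A1, a cytosolic enzyme, makes retinoic acid from retinaldehyde, and ALDH activity is widely used to mark stem-like cells in tumours, endometrial tumours among them. Other members clear lipid aldehydes or carry out single steps of amino acid breakdown and carnitine synthesis. A list of 10 ALDH genes was followed here by name across bulk RNA libraries of HEC-1A, an established human endometrial adenocarcinoma line, of 12558 genes in the count table. Counts were read for 9 of the 10, and the remaining gene was not analysed here. The questions asked of them were whether the increase of ALDH1A1 in CD133+ knock-down cells was shared by any relative, and which members made up most of the ALDH mRNA.

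HEC-1A cells carried a stable lentiviral shRNA against EIF4G2, a translation initiation factor also named DAP5 (EIF4G2KD), or a control shRNA (Control). The methods describe the control as an shRNA against GFP, while the sample labels name it shNT. Cells of both kinds were sorted by CD133, the surface protein encoded by PROM1. The 4 populations were CD133+ EIF4G2KD (5 libraries), CD133+ Control (4 libraries, since the third replicate failed quality control), CD133- EIF4G2KD (5 libraries) and CD133- Control (5 libraries). All cells had passed puromycin selection, and 15000 sorted cells went into each sample. A single shRNA sequence targeted EIF4G2, and the sorted cells came from stably infected pools of 1 line. The labels number 5 replicates per population while the design text speaks of fewer independent experiments, so the p-values reflect variation among these libraries, some of which may be technical. Polyadenylated RNA was read by bulk MARS-seq, a protocol that samples each transcript at its 3′ end, so that levels of different genes need no division by length. Libraries held 1679447 to 5234905 counts (median 3047418), and levels are given as CPM, counts divided by the TMM-scaled library size.

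All 7 epithelial markers looked for were present, with EPCAM at 419 to 1163 CPM and KRT18 at 1595 to 3374 CPM. The lists of 6 stromal and 3 endothelial markers held 0 genes with counts, and of 4 leukocyte markers CD68 alone was seen, at 0 to 3.22 CPM. PROM1 followed the sort, with 12.9 to 26.4 CPM in CD133+ EIF4G2KD and 11.6 to 16.5 CPM in CD133+ Control, against 0.428 to 1.83 CPM in CD133- EIF4G2KD and 0.513 to 3.31 CPM in CD133- Control. The shRNA target EIF4G2 was at 350, 270, 130, 231 and 253 CPM in CD133+ EIF4G2KD, against 377, 360, 275 and 335 CPM in CD133+ Control. In CD133- EIF4G2KD it was at 163, 102, 164, 51.1 and 36.8 CPM, against 360, 193, 323, 245 and 333 CPM in CD133- Control. Neither decrease passed the test across all genes (log2 fold change −0.45, edgeR adjusted p = 0.52, and −1.48, adjusted p = 0.12). Between the EIF4G2KD populations EIF4G2 was higher in CD133+ than in CD133- (log2 fold change 1.24, edgeR adjusted p = 0.02). The difference between the knock-down effects on EIF4G2 was not called (edgeR adjusted p = 0.34). The EIF4G2KD populations thus also differed in target mRNA, and its part in the members' values was not tested. The CD133- EIF4G2KD libraries 5, 4 and 2 and the CD133+ EIF4G2KD library 3 stood apart from the rest on the first principal component. For the members, calls that changed when these libraries were left out together are given both ways. The ALDH1A1 and ALDH3A2 calls between EIF4G2KD populations and in the interaction held without them. Levels and tests of genes outside the list include them. In these bulk samples, fewer cells of a type and less RNA per cell cannot be told apart.

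ALDH1A1 and ALDH1B1 lie on chromosome 9 and were the members of subfamily 1 on the list. The 250 bases before each gene's start in RefSeq are shown because the 2 genes went in opposite directions in CD133+ knock-down cells (RefSeq, GRCh38.p14; 8 of the 9 members had such a window). Capitals mark matches, on either strand, to the TATA box (TATAAA), the CCAAT box (CCAAT) and the GC box (GGGCGG), motifs that do not overlap each other here. The ALDH1A1 window is chr9:72953054-72953303, read on the minus strand; it lies inside the gene span given for ALDH1A1 from GENCODE, which begins at a start farther upstream. The ALDH1B1 window is chr9:38392452-38392701, read on the plus strand.
ALDH1A1: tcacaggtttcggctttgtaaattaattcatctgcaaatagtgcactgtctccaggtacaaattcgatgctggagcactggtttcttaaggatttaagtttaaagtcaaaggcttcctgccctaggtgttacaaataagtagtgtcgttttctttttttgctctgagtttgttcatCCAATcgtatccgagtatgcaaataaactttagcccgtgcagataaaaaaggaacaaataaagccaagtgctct
ALDH1B1: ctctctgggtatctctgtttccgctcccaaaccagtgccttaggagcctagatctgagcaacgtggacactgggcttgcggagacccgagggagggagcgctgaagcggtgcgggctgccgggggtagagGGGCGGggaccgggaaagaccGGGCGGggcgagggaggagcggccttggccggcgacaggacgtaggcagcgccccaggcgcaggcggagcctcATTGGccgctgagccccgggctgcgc
The windows differ in base composition, with 38.4% G and C before ALDH1A1 and 70.4% before ALDH1B1, where the median of 35116 promoter windows was 58%. Both hold 1 CCAAT match, a sequence present in 32% of all windows, and ALDH1B1 alone of the pair holds GGGCGG, at 2 places (42.6% of all windows hold it). TATAAA, found in 10.7% of windows, is in neither.

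ALDH1A1 (chromosome 9, 72900671 to 73080442, minus strand, GENCODE 44 on GRCh38) was the single tested member of the list that rose in CD133+ EIF4G2KD cells. It was at 124, 121, 128, 108 and 137 CPM in CD133+ EIF4G2KD, against 22.8, 26.8, 24.6 and 22.6 CPM in CD133+ Control. In the CD133- cells it was at 47.9, 46.3, 39.2, 57.6 and 43.2 CPM in EIF4G2KD, against 37.0, 48, 48.1, 40.3 and 33.6 CPM in Control. All 5 libraries of CD133+ EIF4G2KD thus lay above every other library, and the 4 of CD133+ Control below every other, with no overlap between CD133+ populations and a wide overlap between CD133- populations. The CD133+ EIF4G2KD library with the highest EIF4G2 level, 350 CPM, had an ALDH1A1 level inside the range of the other 4 libraries of its population (124 CPM).

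The rise amounted to a ratio of means of 5.11, or 2.36 ± 0.15 on the log2 scale (standard error; 95% interval 2.05 to 2.66; edgeR quasi-likelihood test, adjusted p = 1.9e-09). Since the family was chosen with this rise known, the test is not independent support for it. In CD133- EIF4G2KD over CD133- Control the log2 fold change was 0.18 (95% interval −0.09 to 0.45, edgeR adjusted p = 0.62). The difference between the 2 knock-down effects, tested as an interaction, was 2.18 ± 0.19 on the log2 scale (edgeR adjusted p = 9.9e-07). Among Control cells the order was the opposite, and ALDH1A1 was lower in CD133+ Control than in CD133- Control, 24.2 ± 1.93 CPM (SD, n = 4) against 41.4 ± 6.50 CPM (SD, n = 5), with a log2 fold change of −0.77 ± 0.14 (edgeR adjusted p = 0.012). That call was lost when only these populations entered the fit (adjusted p = 0.086) and without CD133+ Control 1 (0.076), CD133+ Control 5 (0.068) or CD133- Control 2 (0.05). Among EIF4G2KD cells CD133+ exceeded CD133- by 1.40 ± 0.13 (edgeR adjusted p = 7.8e-07).

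**Figure D1:**
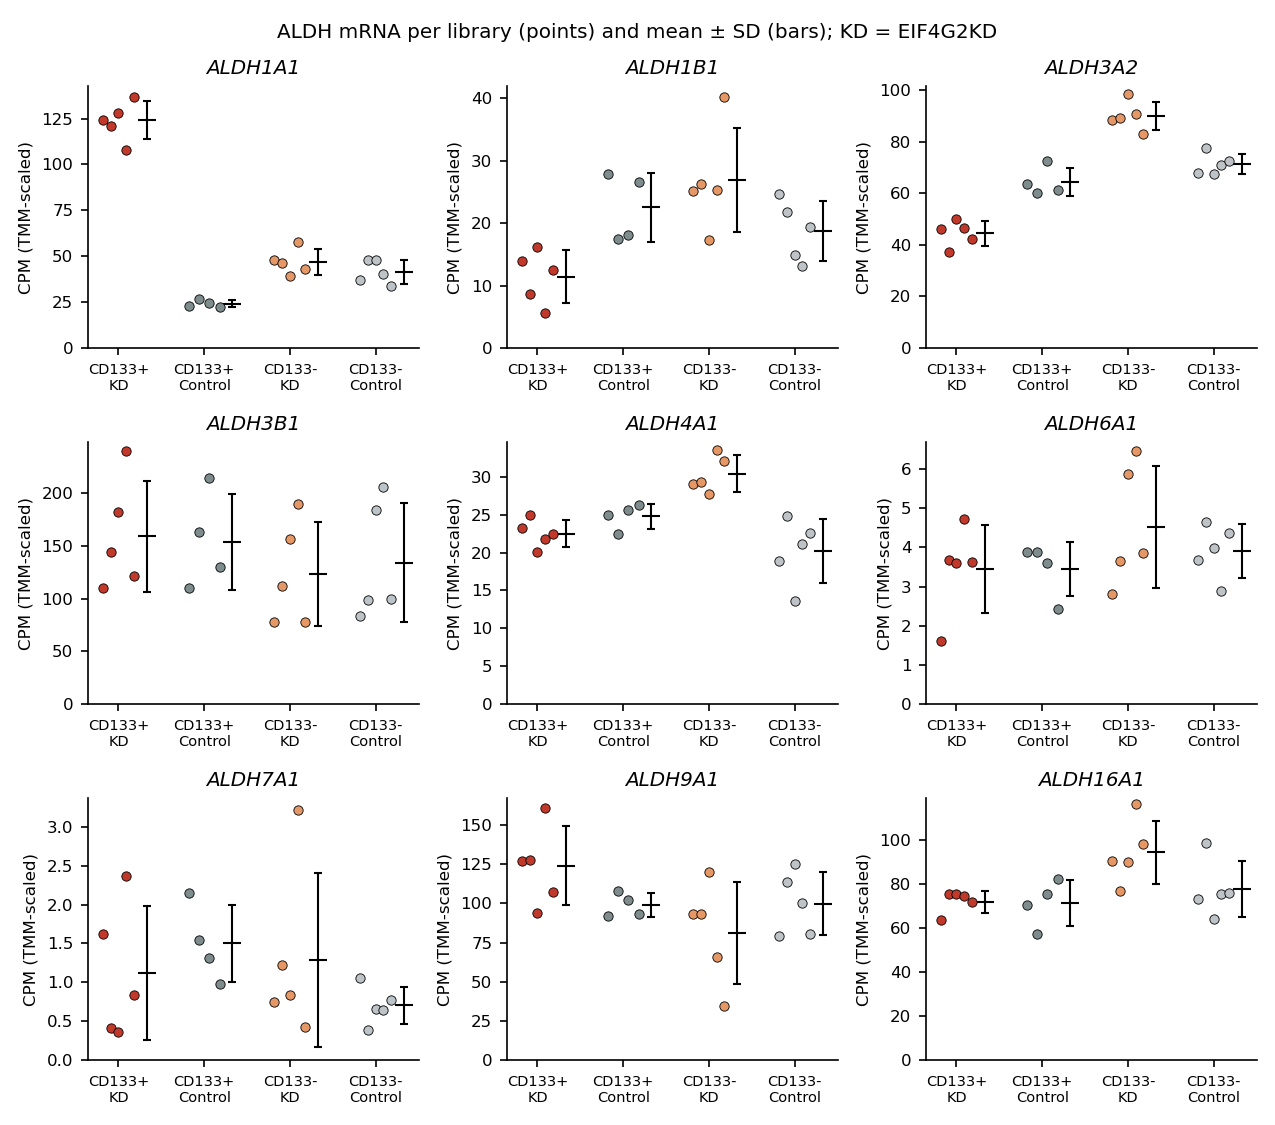
CPM of each of the 9 members in every library (points) with the population mean ± SD beside them (n = 5, and 4 for CD133+ Control); each panel has its own axis from 0. The ALDH1A1 points of CD133+ EIF4G2KD lie between 108 and 137 CPM, above all other libraries, while ALDH1B1 and ALDH3A2 are lowest in that population.

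Of the 8 members that passed the filter on low counts, 1 rose and 2 fell in CD133+ EIF4G2KD over CD133+ Control. Over all 10338 genes tested, 7.86% were called in this comparison, 3.52% higher and 4.34% lower. The median log2 fold change of the 8 members was −0.01, against 0.01 for all genes. Ranges of the CD133+ populations did not overlap for 3 of the 8 members, where 10.1% of all genes showed this. No other member was called as higher. ALDH7A1, which the filter removed, had 1 to 10 counts per library.

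ALDH1B1 (chromosome 9, 38392702 to 38398661, plus strand), a mitochondrial enzyme that oxidises acetaldehyde and also retinaldehyde, fell in CD133+ EIF4G2KD. Its levels were 14.0, 8.58, 16.1, 5.68 and 12.5 CPM in CD133+ EIF4G2KD, against 27.9, 17.4, 18.1 and 26.5 CPM in CD133+ Control. The ranges did not overlap, but the counts behind them were small, 12 to 52 per library in the knock-down cells. The log2 fold change was −0.97 ± 0.28 (edgeR adjusted p = 0.034). The call was lost when only the 2 CD133+ populations were fitted (adjusted p = 0.053) and without CD133+ EIF4G2KD 2 (0.077), 4 (0.071) or 5 (0.056) or CD133+ Control 1 or 5 (0.098 each). In CD133- cells ALDH1B1 was at 25.2, 26.2, 17.3, 25.3 and 40.2 CPM in EIF4G2KD, against 24.7, 21.7, 14.9, 13.1 and 19.3 CPM in Control, overlapping ranges with a log2 fold change of 0.51 (edgeR adjusted p = 0.49). The interaction was −1.47 ± 0.38 (edgeR adjusted p = 0.046), a call that did not hold when most single libraries were left out, at adjusted p up to 0.12, nor without CD133- EIF4G2KD libraries 4 and 5 (0.12) or without all 4 libraries that stood apart (0.17).

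ALDH3A2 (chromosome 17, 19648136 to 19685760, plus strand), the fatty aldehyde dehydrogenase of the endoplasmic reticulum, whose loss in humans causes Sjögren-Larsson syndrome, fell in CD133+ EIF4G2KD and did so evenly. It was at 46.2, 37.2, 50.2, 46.4 and 42.3 CPM in CD133+ EIF4G2KD, against 63.6, 60.1, 72.3 and 61.4 CPM in CD133+ Control. In CD133- cells the order was turned round, with 88.4, 89.0, 98.5, 90.8 and 83.0 CPM in EIF4G2KD against 68.0, 77.4, 67.6, 71.0 and 72.6 CPM in Control. Neither pair of ranges overlapped. In the CD133+ cells the log2 fold change was −0.53 ± 0.11 (edgeR adjusted p = 0.005) and lay inside the fold threshold of 0.58 that was tried as an alternative. The CD133- difference, 0.33 ± 0.11, did not pass over all genes (edgeR adjusted p = 0.32), while the interaction did (−0.87 ± 0.15, edgeR adjusted p = 0.0036). The 3′ end of ALDH3A2 overlaps SLC47A2, an organic cation transporter gene on the other strand, and the strand setting of the counting is not given in the sources used here. SLC47A2 was at 0.278 to 3.95 CPM in CD133+ EIF4G2KD and 0.388 to 4.27 CPM in CD133+ Control, against 10.3 to 41 CPM in CD133- EIF4G2KD and 5.90 to 17 CPM in CD133- Control. Its part in the ALDH3A2 levels was not tested.

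ALDH3B1 (chromosome 11, 68008578 to 68029282, plus strand), a membrane-bound enzyme for lipid aldehydes, had the highest mean of the 9 members in every population and, in CPM, the widest range over libraries (77.5 to 240 CPM). Levels were 110, 144, 182, 240 and 121 CPM in CD133+ EIF4G2KD, against 110, 163, 214 and 130 CPM in CD133+ Control (replicates 1, 2, 4 and 5). In CD133- cells they were 78.0, 112, 156, 190 and 77.5 CPM in EIF4G2KD, against 83.0, 98.7, 184, 206 and 100 CPM in Control. The level differed by replicate number: the 7 libraries numbered 3 and 4 held 156 to 240 CPM and the 8 numbered 1 and 5 held 77.5 to 130 CPM, while the 4 numbered 2, at 98.7 to 163 CPM, overlapped both. These sets were formed after the values were seen. At each number CD133+ was above CD133-, in 5 of 5 numbers for EIF4G2KD and 4 of 4 for Control, and the log2 fold changes of 0.38 and 0.19 were not called (edgeR adjusted p = 0.53 and 1). That fit takes no account of the number. With a replicate block the EIF4G2KD difference was called (log2 fold change 0.41, edgeR adjusted p = 0.0086) and the Control difference was not. ALDH1A1 in the same sets of libraries spanned 24.6 to 128 CPM and 22.6 to 137 CPM. What the numbers stand for is not stated in the labels. The knock-down log2 fold changes of ALDH3B1 were 0.05 in CD133+ cells (95% interval −0.60 to 0.70) and −0.13 in CD133- cells (95% interval −0.75 to 0.48). Reads of ALDH3B1 could be shared with ALDH3B2, a close paralog on the same chromosome, which had at most 2.19 CPM, and an unnamed gene on the other strand overlaps the 3′ end of ALDH3B1.

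**Figure D2:**
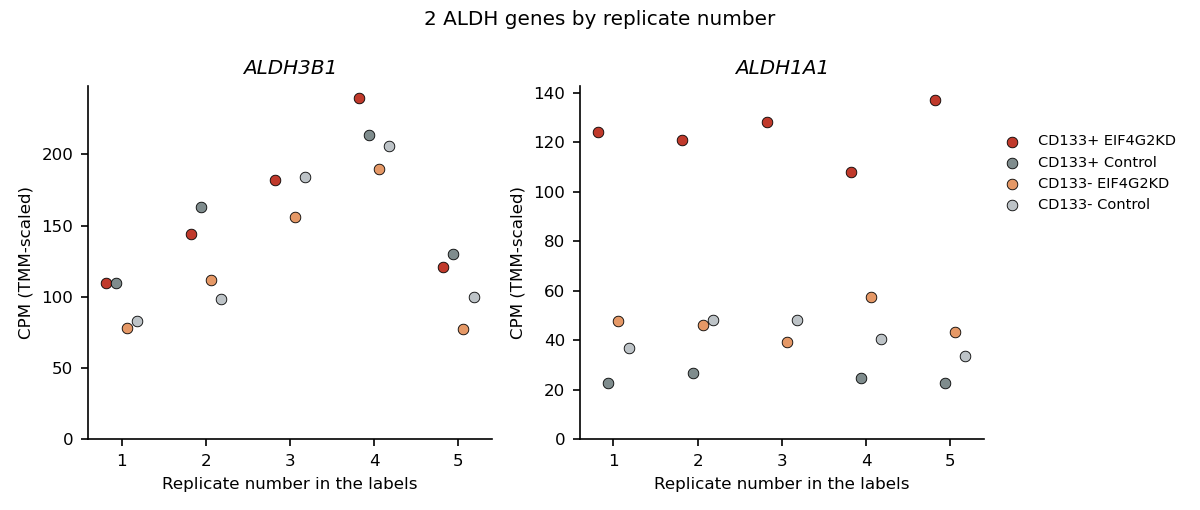
CPM of ALDH3B1 (left) and ALDH1A1 (right) against the replicate number in the labels, with 1 point per library coloured by population. ALDH3B1 is high in every population for numbers 3 and 4 (156 to 240 CPM) and lower for 1 and 5 (77.5 to 130 CPM), whereas ALDH1A1 at each number is highest in CD133+ EIF4G2KD and its CD133- populations overlap.

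The members of amino acid breakdown were not called in any comparison by the edgeR fit of all 19 libraries without a replicate block. The alternatives that called ALDH4A1 are given in the closing section. ALDH4A1 (chromosome 1, 18871430 to 18902724, minus strand), which makes glutamate in the breakdown of proline, was at 23.2, 24.9, 20.1, 21.8 and 22.5 CPM in CD133+ EIF4G2KD, against 24.9, 22.5, 25.6 and 26.3 CPM in CD133+ Control. In CD133- EIF4G2KD it was at 29.1, 29.3, 27.7, 33.6 and 32.1 CPM, against 18.9, 24.8, 13.6, 21.1 and 22.6 CPM in CD133- Control. The CD133+ ranges overlapped and the CD133- ranges did not, yet the CD133- log2 fold change of 0.59 ± 0.15 did not pass over all genes (edgeR adjusted p = 0.18). Its interaction, −0.73 ± 0.21, missed the threshold by edgeR (adjusted p = 0.088) and passed by DESeq2 (adjusted p = 0.049). ALDH6A1 (chromosome 14, 74056847 to 74084492, minus strand), the methylmalonate semialdehyde dehydrogenase of valine breakdown, stayed between 1.62 and 6.45 CPM in all libraries, and its 3′ end overlaps BBOF1 on the other strand. ALDH7A1 (chromosome 5, 126531200 to 126595362, minus strand), which acts in lysine breakdown, was at 0.359 to 3.22 CPM.

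ALDH9A1 (chromosome 1, 165662216 to 165698562, minus strand), the aldehyde step of carnitine synthesis, was at 127, 128, 94.0, 161 and 107 CPM in CD133+ EIF4G2KD, against 92.0, 108, 102 and 93.5 CPM in CD133+ Control. The ranges overlapped (log2 fold change 0.32, 95% interval −0.18 to 0.83, edgeR adjusted p = 0.53). In CD133- EIF4G2KD it was at 93.4, 93.3, 120, 65.9 and 34.2 CPM, against 79.3, 114, 125, 100 and 80.3 CPM in CD133- Control, the 2 lowest values being those of libraries 4 and 5 that stood apart. Without those 2 libraries the log2 fold change in CD133- cells was 0.04, against −0.29 with them. ALDH16A1 (chromosome 19, 49453225 to 49471050, plus strand), whose human protein lacks the catalytic cysteine, averaged 71.9 ± 5.01 CPM in CD133+ EIF4G2KD (SD, n = 5) and 71.3 ± 10.4 CPM in CD133+ Control (SD, n = 4). Its CD133- levels were 94.3 ± 14.4 CPM in CD133- EIF4G2KD and 77.5 ± 12.8 CPM in CD133- Control (SD, n = 5 each). Its CD133+ knock-down effect was 0.01 (95% interval −0.29 to 0.31), and an unnamed gene on the same strand overlaps its 3′ end.

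In CD133- EIF4G2KD over CD133- Control, 0 of the 8 members were called by edgeR and 0 by DESeq2, and 3 had an unadjusted p below 0.05 in edgeR (ALDH4A1, ALDH3A2 and ALDH16A1, all higher). Of all genes tested 0.00967% were called, and 1092 had an unadjusted p below 0.05. Comparing the EIF4G2KD populations, 1 member was higher and 2 were lower in CD133+ than in CD133-, where 7.71% of all genes were called, 3.2% higher and 4.51% lower. They were ALDH1A1, already given, ALDH3A2 (−1.02 ± 0.11, edgeR adjusted p = 4.7e-06) and ALDH1B1 (−1.20 ± 0.27, edgeR adjusted p = 0.0068, which became 0.052 without CD133- EIF4G2KD libraries 4 and 5 and 0.11 without all 4 libraries that stood apart). Among Control cells ALDH1A1 alone was called, against 0.261% of all genes. The interaction called 3 of 8 members and 1.94% of all genes. Ranges did not overlap for 2 of the 8 members between the CD133- populations (1.45% of all genes), for 5 of the 8 between the EIF4G2KD populations (6.51%) and for 1 of the 8 between the Control populations (2.44%). These comparisons share libraries, so their calls are not independent of each other.

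The members were also set beside their neighbours on the chromosomes. In CD133+ EIF4G2KD over CD133+ Control chromosome 9 stood at a median of −0.50 on the log2 scale over its 432 tested genes, where medians of the 22 other chromosomes ran from −0.45 (chromosome 21) to 0.19 (chromosome 1). Within 10 Mb of ALDH1B1, 64 tested genes had a median of −0.63, and 10 of them lay below ALDH1B1 itself. The CD133+ EIF4G2KD libraries had window medians of −0.74 to −0.53 relative to the CD133+ Control mean, and the CD133+ Control libraries −0.09 to 0.08. Around ALDH1A1 the 21 neighbours had a median of −0.46, and 0 of them exceeded ALDH1A1 at 2.36.

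Around ALDH9A1, on the long arm of chromosome 1, the 95 neighbours had a median of 0.52, higher than ALDH9A1's own 0.32. The 302 neighbours of ALDH16A1 had a median of −0.44 while ALDH16A1 was at 0.01, with 27 of them above it. ALDH3A2, in contrast, lay among 89 genes with a median of 0.03, and 82 of these exceeded its −0.53. For the windows of ALDH3B1, ALDH4A1 and ALDH6A1 the medians were 0.08, −0.01 and −0.01. The part that such regional shifts play in the members' values was not tested.

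**Figure D3:**
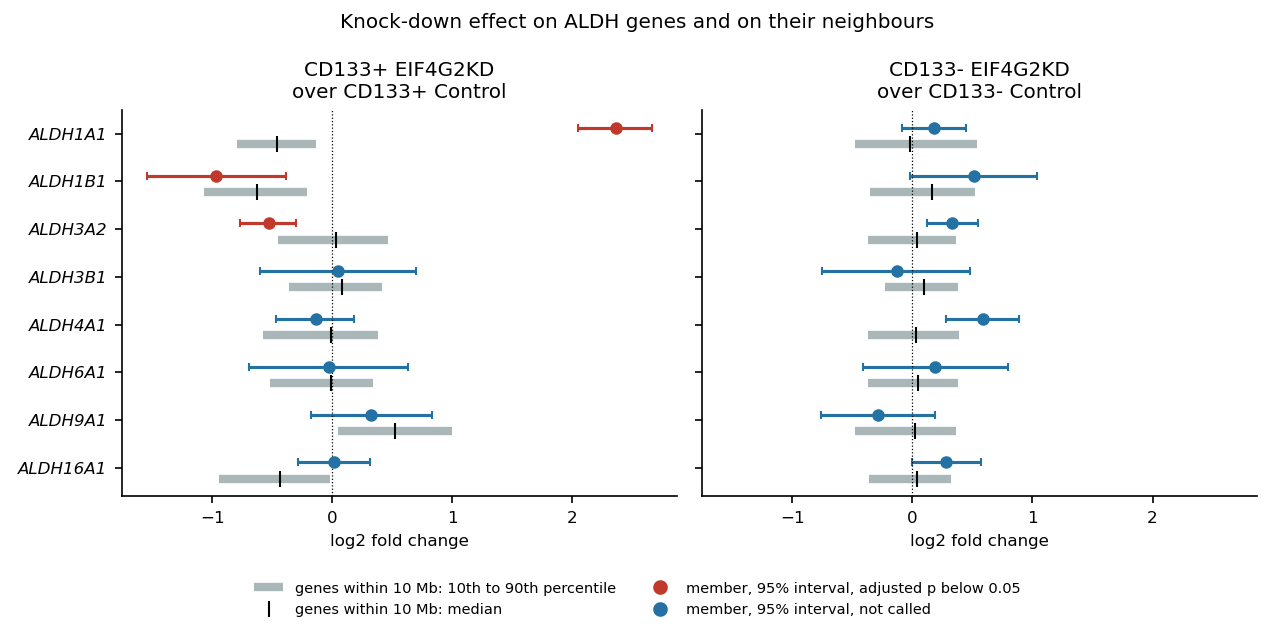
Log2 fold change of the 8 tested members (points with 95% intervals; red where the edgeR adjusted p is below 0.05) in CD133+ EIF4G2KD over CD133+ Control (left) and CD133- EIF4G2KD over CD133- Control (right). Grey bars give the 10th to 90th percentile and ticks the median of tested genes within 10 Mb; ALDH1A1 at 2.36 stands above neighbours with a median of −0.46, and ALDH1B1 at −0.97 among neighbours with a median of −0.63.

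The summed mRNA of the 9 listed genes with counts was made up mostly of 5 members. ALDH3B1, ALDH9A1, ALDH16A1, ALDH3A2 and ALDH1A1 together held 81.4% to 94.8% of the summed CPM of the 9 members in each library, while ALDH6A1 and ALDH7A1 together held 0.633% to 1.64%. ALDH3B1 had the largest mean share in all 4 populations, 27.9 ± 6.04% in CD133+ EIF4G2KD, 32.7 ± 6.12% in CD133+ Control, 23.9 ± 6.33% in CD133- EIF4G2KD and 28.0 ± 8.5% in CD133- Control (SD, n = 5, 4, 5 and 5). It was the highest member in 3 of 5, 4 of 4, 3 of 5 and 4 of 5 of these libraries. As the remaining listed gene was not analysed here, the shares are of the 9 genes with counts. They leave out ALDH genes outside the list. Of these, ALDH18A1 and ALDH1A3 averaged 32.2 and 29.3 CPM in CD133+ Control, above the 24.2 CPM of ALDH1A1.

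ALDH1A1 took 22.3 ± 3.74% of the sum in CD133+ EIF4G2KD (SD, n = 5), against 5.24 ± 0.524% in CD133+ Control (SD, n = 4). In CD133- cells its share was 9.50 ± 1.42% in EIF4G2KD and 8.87 ± 0.940% in Control (SD, n = 5 each). By mean level among the 9 members it took the second place in CD133+ EIF4G2KD, at the 124 CPM of ALDH9A1 and above it in 2 of 5 libraries, so that the pair could not be ordered. In CD133+ Control it took the sixth place of the 9, within the spread of ALDH4A1 (24.8 CPM on average) and ALDH1B1 (22.5 CPM). In both CD133- populations it took the fifth place, above ALDH4A1 in 5 of 5 libraries.

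The summed CPM of the 9 members was 561 ± 61.8 in CD133+ EIF4G2KD (SD, n = 5), against 465 ± 51.0 in CD133+ Control (SD, n = 4), ranges of 512 to 664 and 417 to 537 that overlapped. Without ALDH1A1 the sums were 438 ± 70.4 and 441 ± 50.3 CPM in the same populations. In CD133- cells the sum was 498 ± 72.5 CPM in EIF4G2KD and 468 ± 65.0 CPM in Control (SD, n = 5 each). These sums are descriptions and were not tested.

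**Figure D4:**
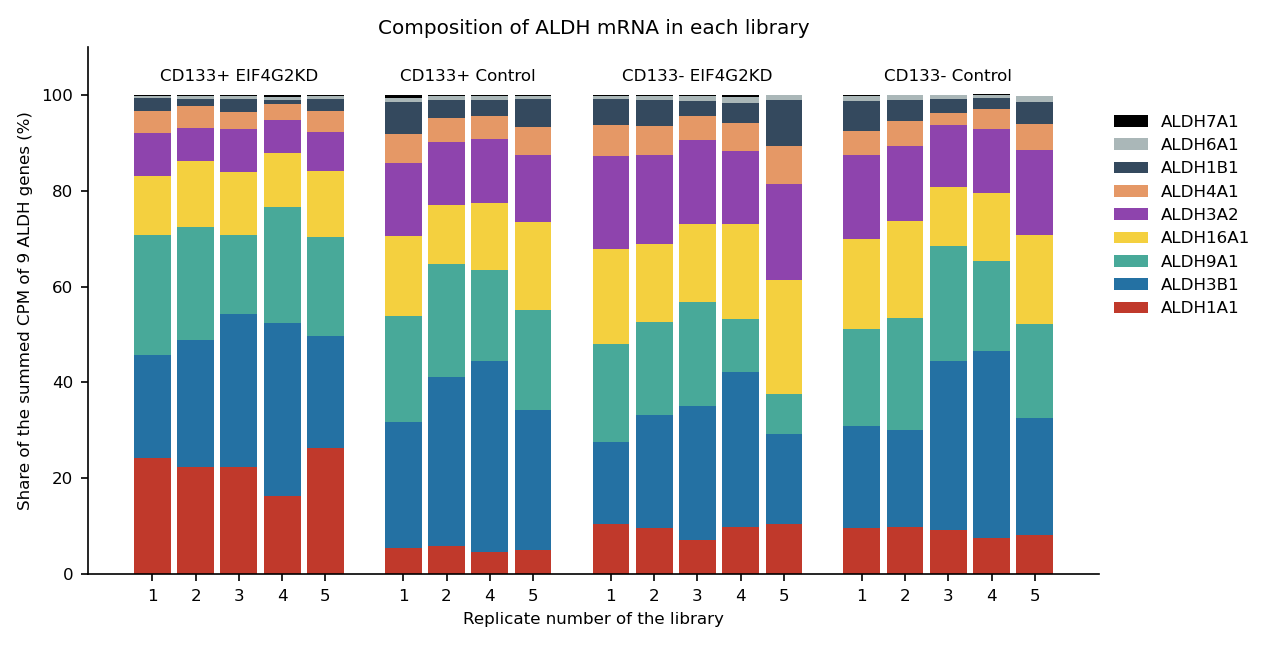
Share of each of the 9 members in their summed CPM, with 1 stacked bar per library, grouped by population and numbered by replicate. ALDH1A1, at the foot of each bar, holds 16.3% to 26.3% in CD133+ EIF4G2KD and 4.59% to 5.81% in CD133+ Control, and ALDH3B1 above it holds the largest mean share in each population.

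Of the ALDH genes outside the list, 7 were in the table and 3 passed the filter. By edgeR 0 of the 3 were called in any comparison, with 1 at an unadjusted p below 0.05 in the CD133+ knock-down comparison and 0 in the others, and DESeq2 called 1, ALDH1A3, in that comparison. ALDH1A3, which like ALDH1A1 makes retinoic acid and whose 3′ end overlaps an antisense gene, was at 16.7, 14.7, 12.9, 10.9 and 18.6 CPM in CD133+ EIF4G2KD, against 23.2, 29.1, 35.5 and 29.5 CPM in CD133+ Control. These ranges did not overlap, though the log2 fold change of −0.97 ± 0.31 missed the threshold (edgeR adjusted p = 0.063; DESeq2 called it). In CD133- EIF4G2KD ALDH1A3 was at 5.56 to 29.4 CPM, lowest in libraries 5 and 4, against 19.7 to 28.8 CPM in CD133- Control. ALDH18A1, which makes an intermediate of proline synthesis, averaged 39.8 ± 5.63 CPM in CD133+ EIF4G2KD (SD, n = 5) and 32.2 ± 4.60 CPM in CD133+ Control (SD, n = 4). ALDH5A1, which acts in the breakdown of GABA, was at 0.856 to 7.36 CPM. ALDH1A2, ALDH3B2 and ALDH8A1 did not pass the filter and reached at most 4.11, 2.19 and 1.46 CPM. ALDH3A1, also below the filter, had 0, 0, 0, 0 and 2 counts in CD133+ EIF4G2KD and 1, 0, 0 and 1 in CD133+ Control, against 3, 1, 0, 0 and 4 in CD133- EIF4G2KD and 6, 0, 6, 16 and 21 in CD133- Control.

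In retinoid metabolism, the pathway of ALDH1A1, 12 of 18 listed genes were in the table and 11 were tested, of which 1 rose and 1 fell in CD133+ EIF4G2KD over CD133+ Control (by DESeq2 1 and 2, with RDH13 added). Over all genes tested 3.52% were called higher and 4.34% lower in that comparison. The list's median log2 fold change was −0.06, against 0.01 for all genes. DHRS3, which reduces retinaldehyde back to retinol, fell to 74.1 ± 32.3 CPM in CD133+ EIF4G2KD (SD, n = 5), against 297 ± 104 CPM in CD133+ Control (SD, n = 4), or −2.01 ± 0.28 on the log2 scale (edgeR adjusted p = 1.1e-04). In CD133- cells DHRS3 was at 308 ± 76.3 CPM in EIF4G2KD and 214 ± 49.0 CPM in Control (SD, n = 5 each), and the interaction was −2.53 ± 0.38 (edgeR adjusted p = 7.7e-04). All 122 genes within 10 Mb of DHRS3 lay above it in the CD133+ comparison. CRABP2, which carries retinoic acid to its nuclear receptors, rose to 31.1 ± 9.21 CPM in CD133+ EIF4G2KD (SD, n = 5), against 15.7 ± 1.10 CPM in CD133+ Control (SD, n = 4; log2 fold change 0.99, edgeR adjusted p = 0.012), among 177 neighbours with a median of 0.49. The 4 tested receptors were not called in that comparison, with log2 fold changes of −0.06 for RARA, −0.42 for RARG, −0.15 for RXRA and 0.20 for RXRB (edgeR adjusted p = 0.89, 0.26, 0.78 and 0.66). Between the EIF4G2KD populations 1 gene of the list was higher in CD133+ (CRABP2, 1.72, edgeR adjusted p = 8.3e-05). The 3 lower genes were DHRS3 (−2.06, edgeR adjusted p = 5.1e-05), RDH13 (−0.60, adjusted p = 0.015) and RARG (−0.65, adjusted p = 0.046). DESeq2 called RARA lower as well. Among all genes tested 3.2% were called higher and 4.51% lower there. Genes within 10 Mb had medians of −0.45 around RDH13 (229 genes) and 0.01 around RARG (162 genes).

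Of 11 tested enzymes that act on aldehydes by other chemistry, 1 rose and 1 fell in the CD133+ comparison (list median −0.07). There 3.52% of all genes tested were called higher and 4.34% lower. AKR1C3, an aldo-keto reductase, averaged 153 ± 38.8 CPM in CD133+ EIF4G2KD (SD, n = 5), against 73.5 ± 1.89 CPM in CD133+ Control (SD, n = 4), a difference of 1.05 ± 0.19 on the log2 scale (edgeR adjusted p = 0.0015) that none of its 42 neighbours reached. In CD133- cells AKR1C3 averaged 157 ± 31.1 CPM in EIF4G2KD and 127 ± 30.1 CPM in Control (SD, n = 5 each). CD133+ Control thus had the lowest mean of the populations, and DESeq2 called it lower than CD133- Control. Between the EIF4G2KD populations the log2 fold change was −0.04 (edgeR adjusted p = 0.93). The interaction, 0.74 ± 0.26, was not called (edgeR adjusted p = 0.17). Reads of AKR1C3 may be shared with near-identical AKR1C genes. PTGR1, a reductase of unsaturated aldehydes and ketones on chromosome 9, averaged 69.0 ± 5.38 CPM in CD133+ EIF4G2KD (SD, n = 5), against 138 ± 15.7 CPM in CD133+ Control (SD, n = 4; −1.0 ± 0.12, edgeR adjusted p = 3.4e-05), with a median of −0.55 over its 55 neighbours. In CD133- cells PTGR1 averaged 79.8 ± 6.49 CPM in EIF4G2KD and 104 ± 14.9 CPM in Control (SD, n = 5 each). Its interaction, −0.62 ± 0.17, was called by DESeq2 and not by edgeR (edgeR adjusted p = 0.07).

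Of the 15 tested partners in amino acid breakdown that are reported here, a count that leaves out a gene of the list, 0 were called in the CD133+ comparison by edgeR and 3 had an unadjusted p below 0.05 (median of the 15 genes 0.11). In that comparison 7.86% of all 10338 genes tested were called, and 2040 had an unadjusted p below 0.05. Between the EIF4G2KD populations 1 of the 15 was higher in CD133+, OAT, the ornithine aminotransferase (0.56, edgeR adjusted p = 0.045). Over all genes 3.2% were called higher between these populations. DESeq2 called ECHS1, of fatty acid and valine breakdown, as lower in CD133+ EIF4G2KD than in CD133+ Control. Of 8 tested genes of lipid aldehyde and carnitine metabolism 0 were called in any comparison by edgeR (list median −0.08 in the CD133+ comparison, where 1 of the 8, SPHK2, had an unadjusted p below 0.05). DESeq2, run without the filter, called FAR2 of that list, a fatty acyl reductase gene, as higher in CD133+ EIF4G2KD. In CD133- EIF4G2KD over CD133- Control edgeR and DESeq2 called 0 genes of these 4 lists, and the counts at an unadjusted p below 0.05 in edgeR were 1 of 11 retinoid genes, 4 of 11 aldehyde enzymes, 0 of 15 amino acid genes and 1 of 8 lipid and carnitine genes. Of all 10338 genes tested, 1092 had such an unadjusted p in the CD133- comparison.

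The tested genes whose log2 CPM followed ALDH1A1 most closely over the 19 libraries were BAHCC1, CRNDE, SCIN, RAB25 and TNNI3, with Pearson r of 0.96, 0.96, 0.95, 0.95 and 0.92. FAM207A and FUOM ran most opposite to it (r = −0.94 each). All 5 had their highest mean in CD133+ EIF4G2KD and their lowest in CD133+ Control. CRNDE, a long noncoding RNA, averaged 113 ± 15.5 CPM in CD133+ EIF4G2KD (SD, n = 5), against 12.4 ± 4.05 CPM in CD133+ Control (SD, n = 4). Within the family ALDH9A1 had the highest r with ALDH1A1, 0.31, and ALDH3A2 and ALDH1B1 the lowest, −0.63 and −0.61. These are descriptions over libraries that fall into 4 populations and share scaling, and no p is given.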

How the data were processed

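Bulk MARS-seq libraries of 19 sorted HEC-1A samples were analysed from the raw count table that the authors deposited. Per the submitters' processing notes and the methods, the authors made the gene counts with cutadapt for trimming, STAR 2.4.2a for alignment (hg38, beside which the notes list mm10) and HTSeq, and compared populations with DESeq2. The annotation, the strand setting and any collapsing of molecular identifiers are not given in the sources used here. The 19 columns of normalized values were not used. The authors' sheets of their own comparisons, which hold mean levels, fold changes and p-values, were not used either.

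Counts were scaled by TMM and fitted with edgeR 4.0.16 in R 4.3.3 (quasi-likelihood, 4 population means in 1 model, no block), after a filter on low counts (filterByExpr, minimum count 10, total 15) that kept 10338 of 12558 genes. P-values were adjusted by Benjamini-Hochberg over all of these, and a gene was called at an adjusted p below 0.05. The scripts were tested on simulated data. There 55.7% of 2-fold and 95.2% of 4-fold changes were called in CD133+ EIF4G2KD over CD133+ Control, as were 5 unchanged genes. A change of 2-fold or less can therefore be missed. Alternatives were DESeq2 1.42.0 (without that filter), RLE scaling, no filter, a replicate block, only the populations compared, fold and mean-count thresholds (0.58 on the log2 scale and 10), and leaving out each library. Leaving out libraries that stood apart, and summing 16 ALDH genes, were added after seeing the data. Within populations, libraries differed by more than sampling noise in all 36 pairs (chi-square per degree of freedom 4.25 to 24.3). Promoter windows come from RefSeq (GRCh38.p14) and positions from GENCODE 44, which matched 97% of tested genes by symbol; neighbours are tested genes with their midpoint within 10 Mb.

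Named were all members with counts, other ALDH genes of the table, up to 4 genes per further list with the smallest adjusted p below 0.05 in a knock-down comparison or the interaction, the 5 genes most and 2 least like ALDH1A1, EIF4G2 and PROM1; SLC47A2, BBOF1, RARA, RARG, RXRA, RXRB, OAT, SPHK2, RDH13, ECHS1 and FAR2 were named after their values were seen. Members and lists were chosen with earlier results of these data known. A gene of the amino acid list is not reported here, and the counts and median of that list were taken without it after its values were seen.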

Additional observations from a re-analysis of the deposited data

Results flagged for a closer look

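The knock-down effect differed between CD133+ and CD133- cells, by the interaction test over all genes, for 3 members and for DHRS3, a gene of the retinoid list. The difference, CD133+ minus CD133-, was 2.18 on the log2 scale for ALDH1A1, −1.47 for ALDH1B1 and −0.87 for ALDH3A2. The ALDH1B1 call (edgeR adjusted p = 0.046) was lost under most alternatives, at adjusted p up to 0.17. The 64 genes within 10 Mb of ALDH1B1 had a median difference of −0.80, against −0.36 around ALDH1A1 and −0.08 around ALDH3A2. For DHRS3 it was −2.53.

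Of 96 groups of values examined for a library far from the rest of its population, 4 held one, where chance gives about 1 in 20. ALDH7A1 was at 3.22 CPM in CD133- EIF4G2KD 4, against 0.428 to 1.22 CPM in the other libraries of that population, on 7 counts. ALDH5A1 was at 7.36 CPM in CD133- Control 2, against 3.2 to 4.36 CPM in the others. The ALDH1A1 share was 7.06% in CD133- EIF4G2KD 3, against 9.69% to 10.5%. The ALDH6A1 share was 0.316% in CD133+ EIF4G2KD 1, against 0.631% to 0.712%.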

How the results depend on the processing

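In CD133+ EIF4G2KD over CD133+ Control, ALDH1A1 was called under all 26 alternatives (log2 fold change 2.31 to 2.4), ALDH3A2 passed the adjusted p under all 26 (−0.58 to −0.48) and ALDH1B1 under 20 (−1.11 to −0.81). Across members and comparisons 993 of 1031 alternative values kept their side of the threshold and 0 called values changed sign. With fold and mean-count thresholds, where ALDH3A2 dropped out, and with only the populations compared, where ALDH1B1 did, 1 member was lower in CD133+ EIF4G2KD than in CD133+ Control. With only the populations compared, the genes called were 0 in CD133- EIF4G2KD over CD133- Control, 462 between EIF4G2KD populations and 14 between Control populations, with 0 members. DESeq2 called 42 genes in the CD133- knock-down comparison, 54 between Control populations and 339 in the interaction, against 1, 27 and 201 by edgeR.

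Same-numbered libraries deviated together in 24 of 27 pairs (r over 0.1; median 0.42, against −0.09 for other pairs), and 12 of 19 libraries correlated best with their own number, a hint from the data that a number marks something shared. The labels do not say what it marks and 3 pairs fell short (lowest −0.23), so the fits without the block were kept. With a replicate block the genes called were 1701, 90, 1674, 78 and 678 in CD133+ EIF4G2KD over CD133+ Control, CD133- EIF4G2KD over CD133- Control, CD133+ over CD133- EIF4G2KD, CD133+ over CD133- Control and the interaction, against 813, 1, 797, 27 and 201 without it. The block added ALDH4A1 as higher in CD133- EIF4G2KD (1 member), and between EIF4G2KD populations 3 members were then higher and 4 lower, with ALDH3B1 (adjusted p = 0.0086) and ALDH9A1 added among the higher and ALDH4A1 (0.028) and ALDH16A1 among the lower. ALDH4A1 was also called there without CD133- Control 3 (0.043), and in the interaction with the block (0.036). In the fit without the block, ALDH9A1 (0.60) and ALDH16A1 (−0.39) lay near the medians of genes within 10 Mb between EIF4G2KD populations. Those medians were 0.54 and −0.43, against −0.01 around ALDH3B1 (0.38) and −0.00 around ALDH4A1 (−0.43). The part of such regional shifts in these calls was not tested.

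Without CD133- EIF4G2KD libraries 4 and 5, the genes called were 0 in the CD133- knock-down comparison and 133 in the interaction, and without the 4 libraries that stood apart 0 and 115, with 292 between EIF4G2KD populations. Under both settings 1 member was lower between EIF4G2KD populations and 1 in the interaction. Leaving out each library in turn gave 0 to 60 genes in the CD133- knock-down comparison (60 without CD133- Control 2, 4 without CD133+ Control 1, otherwise 0) and 128 to 213 in the interaction (128 without CD133- Control 3, 133 without CD133+ Control 5). Members lower were 1 to 2 in the CD133+ knock-down comparison, 0 to 1 between Control populations and 1 to 2 in the interaction, and members higher 1 to 2 between EIF4G2KD populations. Over all 16 ALDH genes of the table the ALDH1A1 share was 4.56% in CD133+ Control and 7.72% in CD133- Control, and the sums were 534 and 537 CPM. Of the 5 genes most like ALDH1A1 by Pearson r, 2 were among the 5 highest by Spearman rho. Where a call changed, the cause was not tested. Counts per library were 6 to 21 for ALDH6A1 and 1 to 10 for ALDH7A1, which limits what could be seen for them.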
